A study of Homo sapiens with 6 samples.

Results

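The genes followed here, chosen by name, were the integrin subunits ITGA2, ITGA3, ITGA5, ITGAV, ITGB1, ITGB3, ITGB5 and ITGB8, and integrin-linked kinase, ILK. All 9 of 9 were found among the 61015 genes on file and all 9 passed the filter on low counts, through 132 annotated transcripts. They were measured by lncRNA sequencing of total RNA in paclitaxel (PTX)-resistant MDA-MB-231, an established line of triple-negative breast cancer. The cells were sorted by the study on aldehyde dehydrogenase (ALDH) activity, a dye-based assay that marks breast cancer stem cells (BCSC, ALDH+) against the remainder (non-BCSC, ALDH−). There were 3 libraries in each group. According to the study, both groups were sorted from PTX-resistant MDA-MB-231 cells. Only the BCSC sample titles name that line and its resistance, and the non-BCSC titles name neither. The cell type label was identical in all 6 libraries, so the groups rest on the sample titles. No label says that libraries of a group came from separate cultures or sorts, so p-values measure the spread between these libraries, which may be technical.

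Integrins are cell-surface receptors made of an alpha and a beta subunit, and they bind the extracellular matrix outside the cell and the actin cytoskeleton inside it. ITGB1 is the shared beta chain for ITGA2, ITGA3 and ITGA5, which with it bind mainly collagen, laminin and fibronectin. ITGAV can also pair with ITGB3, ITGB5 or ITGB8, and these pairs recognise RGD-containing proteins such as vitronectin and the latent form of TGF-beta. ILK is a scaffold that binds beta chain tails and, with PINCH and parvin proteins, links them to actin. In breast cancer cells integrins are known for their part in adhesion, migration and survival signalling.

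Promoter sequences are shown for 3 members whose levels differed between the groups, with ITGA2 and ITGA5 higher and ITGB1 lower in BCSC. Each runs from 250 bases before the annotated start to 25 bases after it on the gene's own strand (RefSeq, GRCh38.p14). Capitals mark the GC box GGGCGG on either strand, to which SP-family factors bind, and in ITGA5 also the AP-1 motif TGANTCA. For ITGB1 it is the first of 2 annotated starts. The windows are ITGA2 at chr5:52989102-52989376 (plus strand), ITGA5 at chr12:54419242-54419516 (minus strand) and ITGB1 at chr10:32958206-32958480 (minus strand).
ITGA2: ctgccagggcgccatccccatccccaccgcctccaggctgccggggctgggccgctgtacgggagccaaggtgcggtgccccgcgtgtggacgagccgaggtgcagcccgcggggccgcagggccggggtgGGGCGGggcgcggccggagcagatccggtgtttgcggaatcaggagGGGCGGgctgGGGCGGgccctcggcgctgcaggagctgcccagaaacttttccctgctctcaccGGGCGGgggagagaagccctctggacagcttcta
ITGA5: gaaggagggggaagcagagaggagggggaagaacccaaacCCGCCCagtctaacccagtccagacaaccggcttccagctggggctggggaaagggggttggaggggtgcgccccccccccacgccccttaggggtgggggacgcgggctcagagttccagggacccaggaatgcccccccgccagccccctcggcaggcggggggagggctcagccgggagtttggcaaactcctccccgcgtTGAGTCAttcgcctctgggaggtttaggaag
ITGB1: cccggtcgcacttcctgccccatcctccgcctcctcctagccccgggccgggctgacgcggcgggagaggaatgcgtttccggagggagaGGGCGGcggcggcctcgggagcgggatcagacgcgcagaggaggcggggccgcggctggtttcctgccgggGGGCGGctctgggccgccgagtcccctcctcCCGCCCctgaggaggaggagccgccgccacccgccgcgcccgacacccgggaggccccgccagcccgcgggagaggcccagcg

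These windows held 4 GC boxes in ITGA2, 1 in ITGA5 and 3 in ITGB1, and their GC content was 74.2%, 68.4% and 78.9%. The GC box occurred in 43.9% of 35116 promoters of the same length, the AP-1 motif in 7.21%, and the median promoter GC content was 58.2%. GC boxes therefore stood in promoters of members on both sides of the comparison. Of the 9 members, 7 had an entry, and ITGA3 and ITGB3 had none. No binding was measured, and a match in letters is a description only.

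Total counts were 15925943 to 21215352 in BCSC and 9898588 to 12263667 in non-BCSC, so that 3 counts, the limit that a count of 0 allows, corresponded to 0.148 to 0.288 CPM, the count after scaling each library to the same effective (TMM) total. Such limits cover counting error only. Of 10 markers of the line, VIM, CD44, AXL, CAV1 and ANXA1 were abundant, while KRT19 and KRT7 were near 0. The keratins KRT8 (6.59 ± 1.82 against 58.6 ± 10.01 CPM, log2 fold change −3.15, adjusted p = 0.000129, edgeR) and KRT18 (1.85 ± 0.802 against 10.99 ± 1.28 CPM, −2.56, adjusted p = 0.0049) were lower in BCSC. The list summed to 6939–8119 CPM in BCSC and 4487–5986 CPM in non-BCSC. ESR1, PGR, GATA3 and FOXA1, which a triple-negative line should lack, summed to 41.6–50.8 and 51.8–66.2 CPM. Of these, PGR was lower in BCSC (0.753 ± 0.563 against 13.9 ± 6.06 CPM, log2 fold change −4.20, adjusted p = 0.00218, edgeR). The others did not pass, with means of 4.47 against 10.2 CPM for ESR1, 14.5 against 9.75 for GATA3 and 26.2 against 23.95 for FOXA1. Leukocyte and platelet markers summed to 1.44–3.35 CPM in BCSC and 18.8–32.8 CPM in non-BCSC over 10 genes. PTPRC, the pan-leukocyte phosphatase, made up most of the non-BCSC sum, with 13.2, 22.6 and 20.7 CPM against 0.197, 0.391 and 1.15 CPM in BCSC, while ITGB2, the leukocyte beta chain, was at 0 in each non-BCSC library and had 27, 9 and 1 counts in BCSC. Endothelial markers (3 of 4 genes found) summed to 34.1–50.9 and 60.03–97.0 CPM, and fibroblast markers (6 genes) to 82.3–98.4 and 139.6–172.3 CPM. Within the endothelial sum CDH5 was lower in BCSC (24.7 ± 8.08 against 66.5 ± 21.6 CPM, adjusted p = 0.00749, edgeR). KDR was 16.4 ± 0.805 against 9.24 ± 3.77 CPM and VWF 0.444 against 1.64 CPM, and neither passed. Counts over 407 olfactory receptor genes, which breast cells should not express, were 1.05–3.18 per kb in BCSC and 8.27–15.2 per kb in non-BCSC. The part of these differences in the results below was not tested, other than through the background correction given with them.

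To ask which integrin genes differed between the sorted fractions, counts were summed per gene and compared in edgeR across all 20442 genes tested. At an adjusted p under 0.05 and a fold above 2, ITGA3 and ITGA5 were higher in BCSC and no member was lower. Over all genes this rule called 20.1%, with 8.85% higher and 11.3% lower. At the adjusted p alone, 6 of 9 members passed, with ITGA2, ITGA3, ITGA5, ITGAV and ILK higher and ITGB1 lower, where 29.9% of all genes passed, 15.3% higher and 14.6% lower. Every member but ITGB3 averaged over 200 counts per library, and among the 8474 genes of that abundance 40.1% passed, 29.8% as higher and 10.3% as lower. With the fold limit these shares were 14.4% and 2.49%. The median member log2 fold change was 0.65, against −0.05 over all genes and 0.22 over abundant genes. In bulk libraries, fewer cells of a type and less RNA per cell cannot be told apart.

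**Figure D1:**
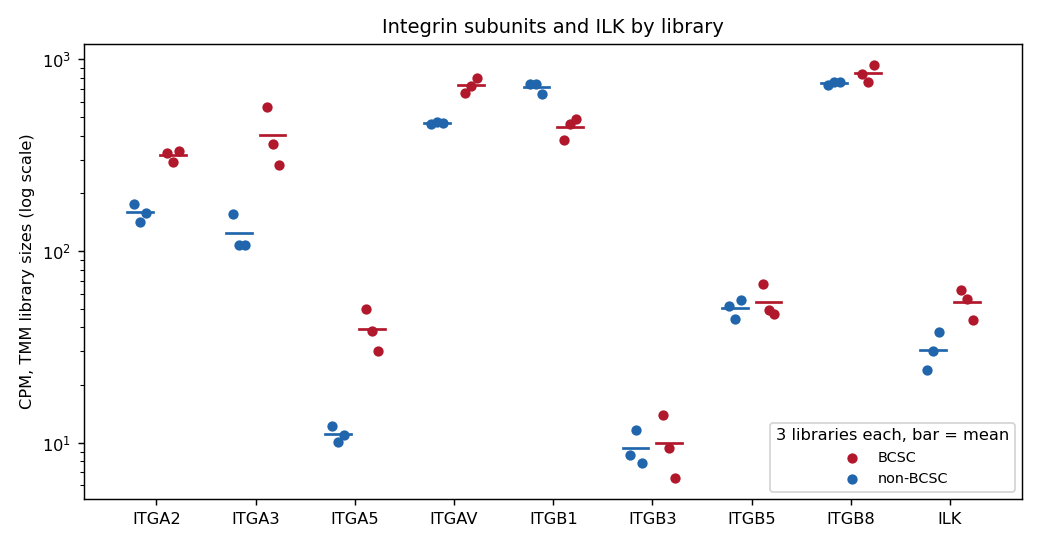
Each point is 1 library and each bar a group mean, for the 9 members (x axis) in CPM on a log axis, with BCSC in red and non-BCSC in blue. The 3 BCSC libraries lay above the 3 non-BCSC libraries for ITGA2, ITGA3, ITGA5, ITGAV and ILK and below them for ITGB1, and the groups overlapped for ITGB3, ITGB5 and ITGB8.

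All 4 alpha chains among the members were higher in BCSC. ITGA2 (ENSG00000164171, chromosome 5, 52285170 to 52390609, plus strand, GRCh37), the collagen-binding alpha chain, had 6614, 4445 and 5474 counts in the BCSC libraries, against 2144, 1611 and 1647 in the non-BCSC libraries. Scaled to library size this was 315.6 ± 22.4 CPM against 159.1 ± 17.3 CPM (SD, n = 3), and no BCSC library overlapped the non-BCSC range. Groups did not overlap in 52.1% of all genes tested (24.2% with BCSC above and 27.9% below), so that separation by itself was common. BCSC exceeded non-BCSC by a log2 fold change of 0.99 (SE 0.11, adjusted p = 0.000675, edgeR quasi-likelihood test), a 1.98-fold difference just under the fold limit. It was 2.14 with the GC and length correction fitted on all genes and 0.94 with that fitted on abundant genes, both described below.

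ITGA3 (ENSG00000005884, chromosome 17, 48133332 to 48167845, plus strand, GRCh37), the laminin-binding alpha chain, had 11408, 5539 and 4662 counts in the BCSC libraries, against 1892, 1218 and 1116 in the non-BCSC libraries. These were 401.7 ± 144 and 123.6 ± 28.2 CPM (SD, n = 3). BCSC 1 stood highest at 562 CPM, yet the lowest BCSC library, at 282 CPM, still exceeded the highest non-BCSC library at 156.1 CPM. Its log2 fold change was 1.70 (SE 0.25, adjusted p = 0.00179, edgeR). It was 1.38 without BCSC replicate 1, and 0.69 and 0.65 under 2 corrections for GC content and length described below, which end the call at a fold of 2 and leave the adjusted p at 0.0229 and 0.00211.

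ITGA5 (ENSG00000161638, chromosome 12, 54789045 to 54813050, minus strand, GRCh37), the alpha chain of the classical fibronectin receptor, had 1008, 584 and 499 counts in the BCSC libraries, against 149, 114 and 115 in the non-BCSC libraries. This gave 39.3 ± 9.79 against 11.1 ± 1.12 CPM (SD, n = 3), with every BCSC library above every non-BCSC library. Its log2 fold change of 1.82 (SE 0.24, adjusted p = 0.00124, edgeR) was the largest among the 9 members as reported. The olfactory receptor background would amount to 7.37% to 17.6% of the ITGA5 counts in non-BCSC and at most 0.847% in BCSC. These shares use the mean length of its annotated transcripts, 1328 bases. They would be larger at the 4250 bases of ITGA5-201, its most counted transcript, and removal at that length was not tested. With the background removed at the mean length, the log2 fold change was 1.75. It was 1.11 (adjusted p = 0.00239) with the GC and length correction fitted on all genes, and 0.94 with that fitted on abundant genes, which ends the call at a fold of 2.

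ITGAV (ENSG00000138448, chromosome 2, 187454737 to 187545628, plus strand, GRCh37), the alpha chain with the widest choice of beta partners, had 13565, 11098 and 13259 counts in the BCSC libraries, against 5573, 5359 and 4848 in the non-BCSC libraries. It reached 731 ± 67.2 CPM in BCSC and 466 ± 6.85 CPM in non-BCSC (SD, n = 3). The non-BCSC libraries lay within 459.9 and 473.5 CPM, all below the lowest BCSC library at 668 CPM. This made a log2 fold change of 0.65 (SE 0.10, adjusted p = 0.00198, edgeR), a 1.57-fold difference. The GC and length correction fitted on all genes raised it to 2.27, whereas the fit on abundant genes gave 0.66.

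The common beta chain went the other way. ITGB1 (ENSG00000150093, chromosome 10, 33176201 to 33294720, minus strand, GRCh37) had 7705, 7036 and 8042 counts in the BCSC libraries, against 9046, 8399 and 6862 in the non-BCSC libraries. After scaling for the larger BCSC libraries these were 441.6 ± 55.5 and 715.5 ± 49.8 CPM (SD, n = 3). Each non-BCSC library, from 658 CPM upwards, exceeded the highest BCSC library at 486 CPM. The log2 fold change was −0.70 (SE 0.11, adjusted p = 0.00298, edgeR), or 1.62-fold lower in BCSC. The direction turned to 0.58 (adjusted p = 0.0872) with the GC and length correction fitted on all genes, but was −0.70 (adjusted p = 0.000548) when that correction was fitted on abundant genes. With the olfactory receptor background removed it was −0.93.

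The other beta chains did not pass the test. ITGB8 (ENSG00000105855, chromosome 7, 20370325 to 20455377, plus strand, GRCh37), a partner of ITGAV in TGF-beta activation, had 17094, 11703 and 15522 counts in the BCSC libraries, against 8889, 8637 and 7991 in the non-BCSC libraries. Scaled values were 848 ± 87.8 against 754 ± 18.1 CPM (SD, n = 3), and BCSC 2, at 763.4 CPM, lay within the non-BCSC range. Its log2 fold change was 0.17 (adjusted p = 0.218, edgeR), with a 95% interval of −0.024 to 0.36. Under the GC and length correction fitted on all genes it became 1.26 (adjusted p = 0.00195).

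ITGB5 (ENSG00000082781, chromosome 3, 124480795 to 124620265, minus strand, GRCh37), a vitronectin-binding partner of ITGAV, had 1365, 752 and 776 counts in the BCSC libraries, against 630, 498 and 577 in the non-BCSC libraries. Its CPM values were 67.2, 49.1 and 46.9 in the BCSC libraries, against 52.0, 44 and 55.3 in the non-BCSC libraries, so the groups overlapped. The log2 fold change was 0.11 (adjusted p = 0.673, edgeR) with a 95% interval of −0.25 to 0.47. It was −0.58 (adjusted p = 0.0212) with the GC and length correction fitted on abundant genes.

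ITGB3 (ENSG00000259207, chromosome 17, 45331193 to 45391109, plus strand, GRCh37), the beta chain of the vitronectin receptor, was the least counted member. It had 284, 144 and 108 counts in the BCSC libraries, against 104, 132 and 82 in the non-BCSC libraries, or 9.97 ± 3.76 and 9.37 ± 2.02 CPM (SD, n = 3). The log2 fold change was 0.09 (adjusted p = 0.874, edgeR), with a wide 95% interval of −0.64 to 0.83. The olfactory receptor background would make up 20.4% to 50.4% of its counts in non-BCSC and 1.001% to 7.98% in BCSC, and without that background the log2 fold change was 0.30 (adjusted p = 0.688, edgeR). Both use the mean length of its annotated transcripts, 2710 bases. The shares would be larger at the 5941 bases of ITGB3-201, its most counted transcript, and removal at that length was not tested.

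ILK (ENSG00000166333, chromosome 11, 6624938 to 6632105, plus strand, GRCh37) had 1279, 864 and 725 counts in the BCSC libraries, against 289, 342 and 394 in the non-BCSC libraries. This was 54.4 ± 9.73 against 30.6 ± 6.98 CPM (SD, n = 3), with the lowest BCSC library at 43.9 CPM and the highest non-BCSC library at 37.8 CPM. The log2 fold change was 0.83 (SE 0.22, adjusted p = 0.0190, edgeR). The call at an adjusted p under 0.05 was lost under 6 of 15 alternatives: without BCSC replicate 1 (0.71, adjusted p = 0.0677), BCSC replicate 2 (0.84, adjusted p = 0.0597) or non-BCSC replicate 2 (0.87, adjusted p = 0.0544), with the background removed (0.63, adjusted p = 0.0655), and with either GC and length correction (0.27, adjusted p = 0.422, and 0.04, adjusted p = 0.908). ILK shares 2375 of its 3485 annotated exon bases (68.1%) with TAF10, a subunit of the general transcription factor TFIID, on the opposite strand. TAF10 held 2998 counts over the 6 libraries against 3893 for ILK. Since the use of strand in counting is not given in the sources used here, ILK is uncertain. TAF10 itself had a log2 fold change of 0.25 (SE 0.28, adjusted p = 0.530, edgeR) and its groups overlapped.

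**Figure D2:**
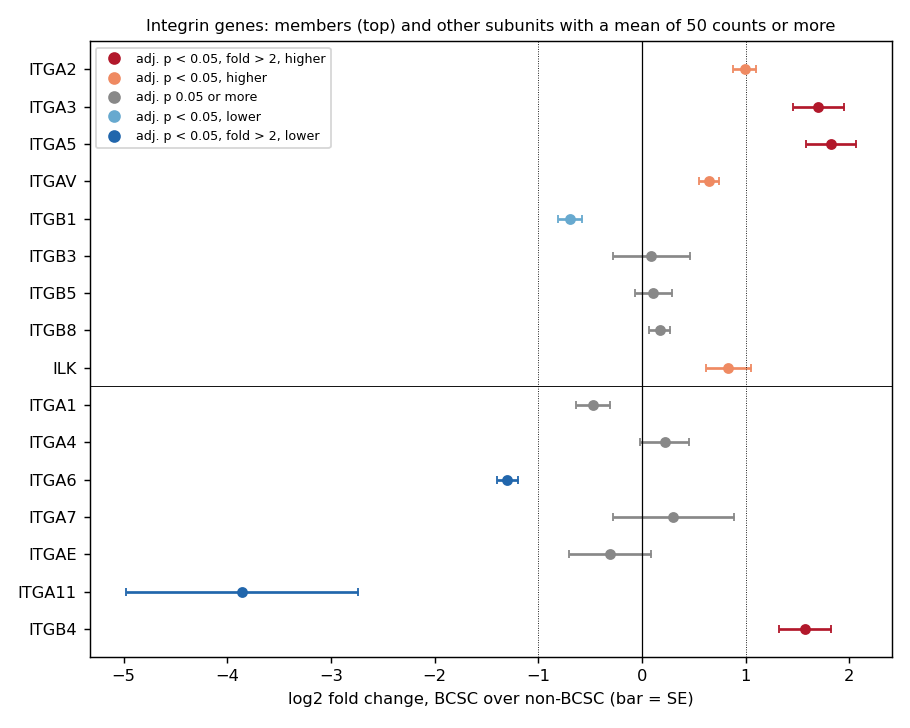
Log2 fold changes of BCSC over non-BCSC (x axis, bars are SE) are shown for the 9 members in the upper block and, in the lower block, for the other tested integrin subunits with a mean of at least 50 counts; colours give the call and dotted lines a fold of 2. ITGA3, ITGA5 and ITGB4 passed both limits as higher, ITGA6 and ITGA11 as lower, and ITGB1 lay at −0.70, turning to 0.58 under 1 correction for GC content and length.

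Levels were compared between members as CPM per kb, with the length of the most counted protein-coding transcript of each gene. In BCSC the order was ITGB1 (118 ± 14.9), ITGAV (104 ± 9.54), ITGB8 (94.5 ± 9.79), ITGA3 (82.2 ± 29.5), ITGA2 (40.2 ± 2.85), ILK (26.2 ± 4.69), ITGB5 (12.3 ± 2.51), ITGA5 (9.25 ± 2.30) and ITGB3 (1.68 ± 0.633 CPM per kb, SD, n = 3). Neighbours from ITGB1 down to ITGA3 overlapped in their library ranges, as did ITGB5 and ITGA5, while the other steps were larger than the spread. In non-BCSC the order was ITGB1 (192 ± 13.3), ITGB8 (84.1 ± 2.01), ITGAV (66.2 ± 0.974), ITGA3 (25.3 ± 5.77), ITGA2 (20.3 ± 2.21), ILK (14.8 ± 3.36), ITGB5 (11.4 ± 1.31), ITGA5 (2.62 ± 0.263) and ITGB3 (1.58 ± 0.340 CPM per kb). Here ITGB1, ITGB8 and ITGAV stood apart from each other and from the rest, whereas ranges from ITGA3 to ITGB5 overlapped step by step. With each transcript's own length (a TPM-like scale) the top of the BCSC order was instead ITGAV (296 ± 36.5), ITGB8 (277 ± 40.6) and ITGB1 (264 ± 58.1).

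Taken as ratios within a library, which do not depend on library scaling, each of these 4 alpha chains stood higher relative to ITGB1 in BCSC. That separation follows from the values above, since each alpha chain was higher and ITGB1 lower without overlap. Fold differences between groups are ratios of geometric means. ITGA2 per ITGB1 was 0.409, 0.301 and 0.324 in the BCSC libraries, against 0.113, 0.0913 and 0.114 in the non-BCSC libraries, 3.23 times higher. On the TPM-like scale, which uses each transcript's own length, this ratio was only 2.18 times higher. ITGA2 itself was 107 ± 9.20 in BCSC against 77.4 ± 19.8 in non-BCSC on that scale (SD, n = 3). ITGA3 per ITGB1 was 1.13, 0.601 and 0.443 against 0.160, 0.111 and 0.124, 5.16 times higher. ITGA5 per ITGB1 was 0.115, 0.0729 and 0.0545 against 0.0145, 0.0119 and 0.0147, which was 5.64 times higher. These 3 alpha chains thus spanned a wide range of levels relative to their shared partner, with ITGA5 the scarcest. ITGAV per ITGB1 was 0.934, 0.837 and 0.875 against 0.327, 0.339 and 0.375, 2.55 times higher. On the TPM-like scale the ratios of ITGA3, ITGA5 and ITGAV to ITGB1 were 4.76, 4.52 and 2.45 times higher. From the fitted fold changes, ITGA3 per ITGB1 was 5.27 times higher as reported, but 1.08 times with the GC and length correction fitted on all genes and 2.55 times with that fitted on abundant genes. For ITGA5 per ITGB1 these were 5.72, 1.44 and 3.10 times.

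By geometric means, the ratios of ITGAV to its other partners were 1.40 to 1.52 times higher in BCSC. ITGAV per ITGB8 was 1.01, 1.21 and 1.09 in the BCSC libraries, against 0.799, 0.791 and 0.774 in the non-BCSC libraries, so the groups separated at 1.40-fold. ITGAV per ITGB5 (8.79 ± 2.30 against 5.89 ± 0.791) and per ITGB3 (69.7 ± 31.9 against 43.1 ± 8.03, SD, n = 3) overlapped between groups. Among the beta chains that can pair with ITGAV (ITGB1, ITGB3, ITGB5, ITGB6 and ITGB8), ITGB1 took 52.0% ± 3.98 of the summed level in BCSC and 66.3% ± 2.09 in non-BCSC. ITGB8 took 41.6% ± 2.87 and 29.1% ± 1.66, and neither share overlapped between groups. The other 3 together held the remainder. The ITGB1 and ITGB8 shares come from the same sum, so they are not independent. The level of ITGB8 itself overlapped between groups and did not pass the test (log2 fold change 0.17, adjusted p = 0.218, edgeR). No test was made of the ratios or shares, and mRNA ratios are not ratios of assembled receptors.

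**Figure D3:**
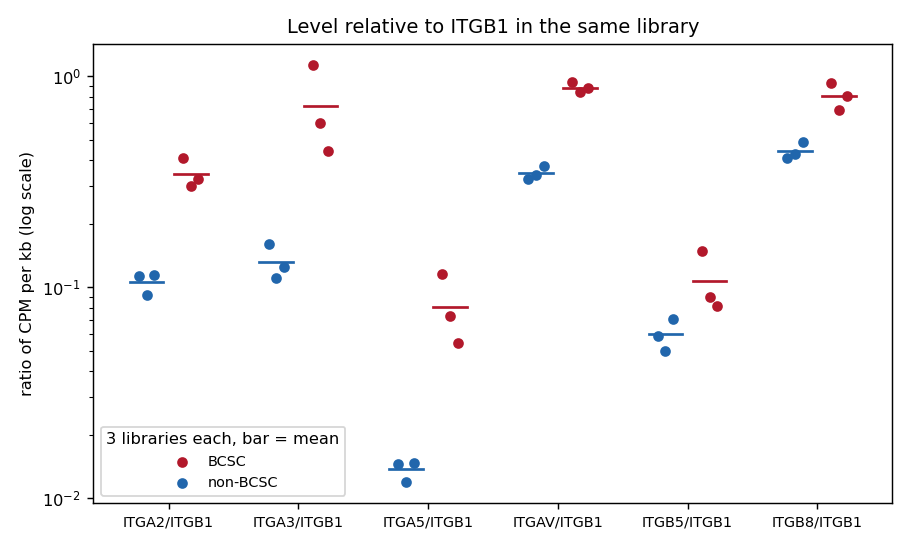
Ratio of each member's CPM per kb to that of ITGB1 in the same library (log axis), with 3 BCSC libraries in red, 3 non-BCSC libraries in blue and bars for the group means. All 3 BCSC libraries lay above all 3 non-BCSC libraries in each of the 6 ratios, with fold differences of geometric means from 1.74 (ITGB5) to 5.64 (ITGA5). The 6 ratios share the denominator ITGB1, which was itself lower in BCSC, so they are not separate results. ITGB5 and ITGB8 overlapped between groups in their own CPM.

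To see which transcripts carried the gene sums, transcripts were also tested as deposited. Of 40 member transcripts tested none was called, where 0.784% of 45898 transcripts were called in all (0.597% higher and 0.187% lower). At an unadjusted p under 0.05 there were 10 member transcripts, 8 of them higher in BCSC, against 17.4% of all transcripts, and DESeq2 called 9, where it called 16.2% of all transcripts. Transcripts varied more between libraries than gene sums, as edgeR put their common coefficient of variation at 1.02, against 0.453 for genes. The smallest adjusted p among members, 0.05001 (edgeR), belonged to ILK-201, a transcript singled out after its values were seen, with 234, 151 and 170 counts in BCSC and 0 in each non-BCSC library. It passed the filter through the BCSC libraries, where it was high, so this value is a description only. The split between ILK transcripts also differed among libraries of 1 group, as ILK-203 had 0, 198 and 206 counts in the non-BCSC libraries.

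For ITGA5 the coding transcript followed the gene and the retained-intron transcripts did not. ITGA5-201, the most counted coding transcript, had 951, 529 and 443 counts in the BCSC libraries, against 94, 64 and 50 in the non-BCSC libraries (adjusted p = 0.0655, edgeR). The 8 retained-intron transcripts of ITGA5 together had 54, 55 and 56 counts against 55, 50 and 60. ITGA5-211, the longest of them, had 6.61, 9.61 and 9.21 counts per kb in BCSC and 10.6, 9.01 and 10.6 in non-BCSC, where the olfactory receptor background was 1.05–3.18 and 8.27–15.2 per kb. Coding transcripts held 91.2% ± 2.84 of the ITGA5 counts in BCSC and 54.2% ± 9.94 in non-BCSC (SD, n = 3), and the part of the background in these shares was not tested. Across all genes, retained-intron transcripts took 9.15% to 10.04% of counts in BCSC and 8.83% to 10.1% in non-BCSC.

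For ITGA3 the coding share was 90.4%, 82.9% and 90.7% in the BCSC libraries, against 60.8%, 11.6% and 75.2% in the non-BCSC libraries. ITGA3-202, the main coding transcript, had 10306, 4590 and 4225 counts in the BCSC libraries, against 1151, 141 and 839 in the non-BCSC libraries. The low non-BCSC 2 value went with 921 counts on ITGA3-204, a retained-intron transcript. ITGA2-201, the only coding transcript of ITGA2, had 6280, 4445 and 5474 counts in the BCSC libraries, against 967, 567 and 1647 in the non-BCSC libraries (adjusted p = 0.0958, edgeR). In non-BCSC 1 and 2, 54.9% and 64.8% of ITGA2 counts lay on transcripts annotated for nonsense-mediated decay, and in non-BCSC 3 none did. The split between transcripts differed among libraries of 1 group, so values of single transcripts are uncertain for both genes.

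The most counted ITGB1 transcript was a retained-intron form, ITGB1-221, with 2608, 2614 and 1792 counts in the BCSC libraries, against 4709, 3050 and 2570 in the non-BCSC libraries. Its log2 fold change was −1.08 (adjusted p = 0.110, edgeR). Retained-intron transcripts took 31.4% ± 7.72 of ITGB1 counts in BCSC and 42.1% ± 8.84 in non-BCSC (SD, n = 3), and the groups overlapped. The main transcripts of the remaining members were ITGAV-201, ITGB3-201, ITGB5-201, ITGB8-201 and ILK-202. ITGB8-201 alone held 91.4% to 96.7% of ITGB8 counts over the 6 libraries, and ITGB5-201 held 94.2% to 99.2% of ITGB5 counts.

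**Figure D4:**
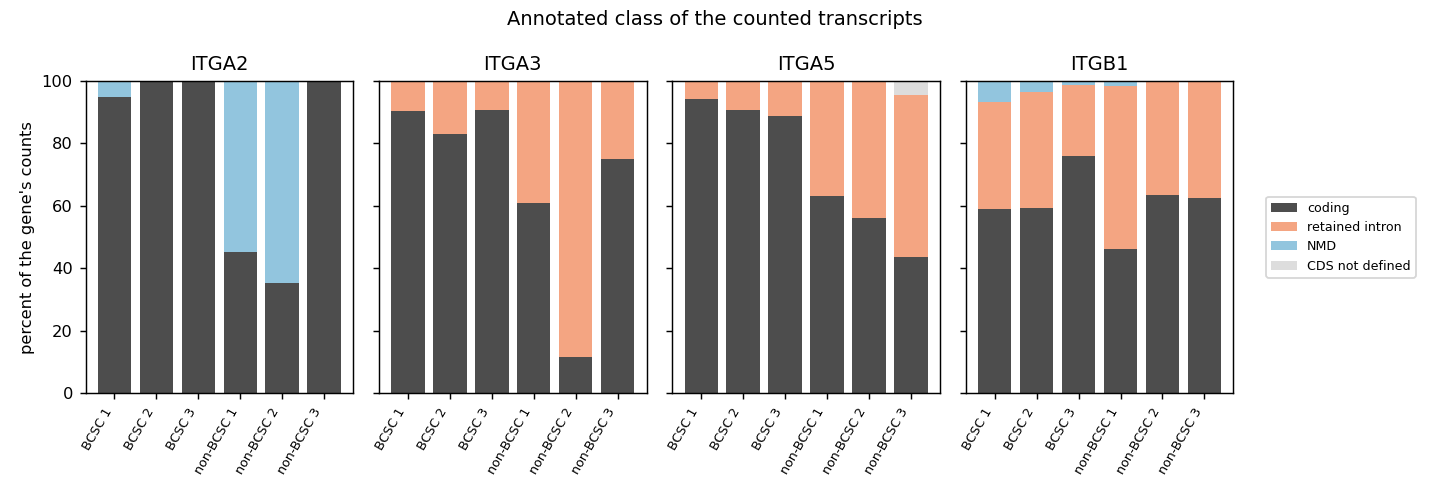
Stacked bars give the percent of each gene's counts on transcripts annotated as coding, retained intron, nonsense-mediated decay (NMD) or without a defined coding sequence (CDS), per library, for ITGA2, ITGA3, ITGA5 and ITGB1. The coding share of ITGA5 was 88.8% to 94.4% in BCSC and 43.5% to 63.1% in non-BCSC, and that of ITGA2 was 100% in non-BCSC 3 but 45.1% and 35.2% in the other two non-BCSC libraries.

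Of the 18 other integrin subunits, 12 were tested, and 1 was higher and 4 lower in BCSC past both limits, where 8.85% and 11.3% of all genes were. ITGB4, the hemidesmosomal beta chain, had 5661, 2757 and 2331 counts in the BCSC libraries, against 1027, 634 and 637 in the non-BCSC libraries (log2 fold change 1.57, SE 0.25, adjusted p = 0.00257, edgeR). ITGA6, its laminin-binding partner, went the opposite way with 5927, 5139 and 5437 counts against 9760, 9485 and 7375 (−1.30, SE 0.10, adjusted p = 0.000111, edgeR). GC content was 62.8% for ITGB4 and 42.3% for ITGA6, and the part of the GC trend given below in this pair was not tested. ITGA6 also pairs with ITGB1, and its ratio to ITGB1 was 0.466 ± 0.0301 in BCSC and 0.703 ± 0.0195 in non-BCSC. ITGA11, ITGA8 and ITGA9 were the other 3 lower subunits, all sparse, with 9, 0 and 22 counts of ITGA11 in the BCSC libraries, against 26, 92 and 166 in the non-BCSC libraries. ITGA8 and ITGA9 were named after their values were seen. These sparse genes passed the filter through the non-BCSC libraries, where they were high, so the count of 4 lower is a description only. ITGA8 had no count in the BCSC libraries, against 18, 12 and 35 in the non-BCSC libraries, and ITGA9 had 9, 5 and 16 against 43, 43 and 87. Their non-BCSC counts were highest in the library with the highest olfactory receptor background, non-BCSC 3.

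Genes for proteins that join integrins to actin were higher at the RNA level or did not pass. Of 19 ILK partners and adaptors tested, 7 were higher and none lower past both limits, and 9 were higher by the adjusted p alone. Of all genes, 8.85% were higher past both limits and 15.3% by the adjusted p alone, and of abundant genes 14.4% and 29.8%. The shares lower past both limits were 11.3% of all genes and 2.49% of abundant genes. ZYX (zyxin) rose from 18.2 ± 2.35 to 77.8 ± 18.3 CPM (log2 fold change 2.09) and PXN (paxillin) from 31.6 ± 8.996 to 158.6 ± 56.4 CPM (2.33). TNS3 (a tensin) and TLN2 (a talin) had log2 fold changes of 1.12 and 1.29, with adjusted p of 0.00191 and 0.00359 (edgeR). The ILK partners LIMS1 (a PINCH protein) and PARVA (a parvin) did not pass, with log2 fold changes of −0.13 (adjusted p = 0.520) and 0.30 (adjusted p = 0.204), and LIMS2, PARVB and PARVG were too sparse to test. TLN1, the main talin, had −0.17 (adjusted p = 0.470, edgeR). GC content was 63.9% for ZYX, 59.1% for PXN, 54.5% for TNS3 and 53.5% for TLN2. It was 46.4% for LIMS1, 49.7% for PARVA and 57.2% for TLN1. Fold changes rose with GC content over all genes, as given below, and the part of that trend in this list alone was not tested.

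Among 20 kinases and signalling genes tested, 6 were higher and none lower past both limits. Of all genes, 8.85% were higher and 11.3% lower by this rule, and of abundant genes 14.4% and 2.49%. CAV1 (caveolin), a membrane scaffold, rose from 231.3 ± 21.4 to 570.4 ± 15.2 CPM (log2 fold change 1.30, adjusted p = 8.65e-05, edgeR). BCAR1 (p130Cas, a docking protein at adhesions), GIT1 and AKT1 had log2 fold changes of 2.50, 1.96 and 1.17. PTK2, the focal adhesion kinase, had −0.16 (adjusted p = 0.234).

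Of 22 ligands tested, 5 were higher and 2 lower past both limits, where 8.85% and 11.3% of all genes were. TNC (tenascin-C) rose from 175.9 ± 21.6 to 696.9 ± 176 CPM (log2 fold change 1.99), and TGFB1, CCN1 and LAMA5 had 1.66, 1.38 and 1.39. The remaining ligands called were LAMB3 and POSTN (periostin), named after their values were seen. LAMB3 had 214, 70 and 75 counts in the BCSC libraries and 7, 6 and 28 in the others. POSTN, which was lower, had 4, 12 and 19 against 67, 39 and 134. SPP1 (osteopontin), an RGD ligand of ITGAV pairs, fell from 836.8 ± 110 to 333.9 ± 30.1 CPM (−1.33, adjusted p = 0.00023, edgeR). FN1 (fibronectin), the ligand of ITGA5 with ITGB1, had 0.21 (adjusted p = 0.369). Of 17 surface partners and trafficking genes tested, 6 were higher and 1 lower past both limits, against the same 8.85% and 11.3% of all genes. SDC4 (syndecan-4, a co-receptor for fibronectin) had a log2 fold change of 1.89, and the tetraspanin CD81 had 1.75. BSG (basigin) had 1.03. The tetraspanin CD82 had 225, 148 and 63 counts in the BCSC libraries, against 6, 0 and 0 in the non-BCSC libraries, while CD9, of the same family, fell from 242.1 ± 11.8 to 51.2 ± 7.98 CPM (−2.24, adjusted p = 3.21e-05, edgeR). Over all 5 lists 25 of 90 tested genes were higher and 7 lower, with a median log2 fold change of 0.40, where 8.85% and 11.3% of all genes were called, and 14.4% and 2.49% of abundant ones. SRC, CD82 and LAMB3 passed the filter through BCSC and POSTN through non-BCSC, where they were high, so these counts of called genes are a description only. The 25 became 14 without BCSC replicate 1, 18 when 10 counts were required in every library and 6 with the GC and length correction fitted on abundant genes. The 7 became 3 without non-BCSC replicate 3 or when 10 counts were required in every library, and 4 with the background removed.

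Fold changes moved with base composition across all genes. The rank correlation of log2 fold change with GC content was 0.545 over the genes tested, a description over genes that share the same libraries. Among members, ITGA3 (58.3% GC), ITGA5 (56.1%) and ILK (54.9%) were the richest in GC, and ITGAV (38.9%), ITGB1 (41.0%), ITGA2 (42.5%) and ITGB8 (43.0%) the poorest. A correction for GC content and length fitted on all genes took the rank correlation to −0.163, and one fitted on the 8474 abundant genes, added after the data were seen, left 0.00567 among them. The second lowered ITGA3 and ITGA5 to 0.65 and 0.94, brought ILK to 0.04, and left ITGA2, ITGAV and ITGB1 at 0.94, 0.66 and −0.70. After it, 418 of all genes were called higher and 2722 lower, against 1810 and 2307 as reported and 4341 and 1702 with the correction fitted on all genes. The median log2 fold change of all genes was −0.29 under the second and 0.29 under the first. ITGA2, ITGA3, ITGA5 and ITGAV passed the adjusted p in the same direction under each of 15 alternatives, and ITGB1 did so under 14.

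**Figure D5:**
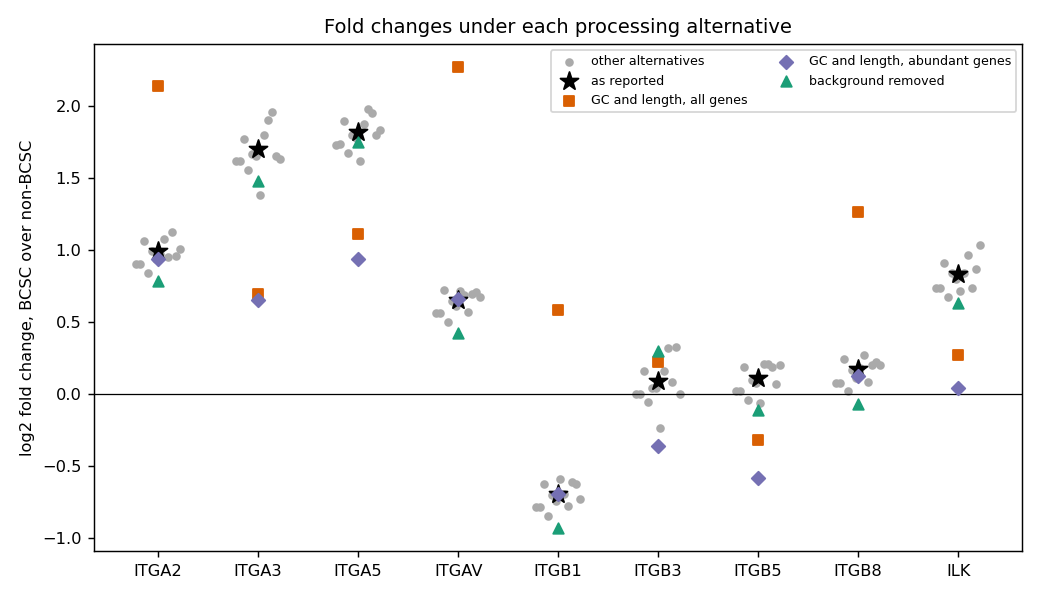
Log2 fold change of each member (y axis) as reported (star) and under 15 alternatives, of which the 2 corrections for GC content and length and the background removal have their own symbols. ITGA2, ITGA3, ITGA5 and ITGAV stayed above 0 throughout, ITGB1 was below 0 except for 0.58 with the correction fitted on all genes, and ILK dropped to 0.04 with the correction fitted on abundant genes.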

How the data were processed

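Total RNA of the 6 libraries was converted with random primers and dUTP strand marking, per the labels. The authors deposited 1 table of estimated counts, a whole number of reads for each transcript, without normalization. Reads were aligned with HISAT2, to hg19 in the study's RNA-seq methods and to hg38 in the submitters' processing notes, so the build is unsettled. The notes also list featureCounts and DESeq2, but the counting step, its use of strand and the annotation release are not given in the sources used here. Of 252618 transcripts, 249787 (98.879%) matched GENCODE v44 lifted to GRCh37 by identifier, which gives the coordinates printed. The 2827 others and 4 assembler-made ones held 0.273% of counts and were left out.

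Counts were summed per gene and fitted in edgeR 4.0.16 (R 4.3.3) on all libraries with TMM, filterByExpr, a robust quasi-likelihood test with group as the only term and Benjamini-Hochberg adjustment over all genes. CPM use TMM library sizes. Intervals are 1.96 SE on either side. Genes were called at adjusted p under 0.05 and fold above 2. Listed genes are named if called, averaging 50 counts or more, with groups that do not overlap, up to 4 a direction by p. All members are named, with the most counted transcript of each and any called; any further name was picked with its values in view. Alternatives were RLE, DESeq2 1.42.0, no filter, at least 10 counts per library, a replicate block, each library left out, GC and length correction (loess, span 0.3), background removal and thinning to the smallest library. Background removal subtracted each library's olfactory receptor count per kb times the mean length of the gene's annotated transcripts. That length can be shorter than the transcript most counted. Members and lists were chosen with earlier results of these data known.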

Additional observations from a re-analysis of the deposited data

How the results depend on the processing

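The number of members called higher, 2 as reported, was 4 with the correction for GC content and length (ITGA2, ITGA5, ITGAV and ITGB8) and 0 with that correction fitted on abundant genes, which was chosen after seeing the data. Leaving out each library in turn gave 2 to 4, with 4 without non-BCSC replicate 3, which adds ITGA2 and ILK. No member was called lower with a fold above 2 in any alternative, and 5 or 6 members passed the adjusted p alone in each. Adhesion list genes called higher, 25 as reported, were 6 with the abundant-gene correction and 18 with at least 10 counts in every library. They were 14 to 30 when 1 library was left out (14 without BCSC replicate 1). Those called lower, 7 as reported, were 3 with at least 10 counts in every library, 4 with the background removed and 3 to 7 with 1 library left out (3 without non-BCSC replicate 3). Member transcripts called, 0 as reported, were 9 with DESeq2 and 1 (ITGA5-201) with at least 10 counts in every library. ITGB1 reversed to 0.58 with the GC and length correction (adjusted p = 0.0872, edgeR), and ITGB5 to −0.58 when it was fitted on abundant genes (adjusted p = 0.0212). Without passing the adjusted p, ITGB3 reversed to −0.058 with at least 10 counts in every library, −0.36 with the abundant-gene correction and −0.24 without BCSC replicate 1 (range with 1 library left out −0.24 to 0.32). ITGB5 reversed to −0.041, −0.32, −0.11 and −0.067 with at least 10 counts, the GC and length correction, the background removed and without BCSC replicate 1 (range −0.067 to 0.21), and ITGB8 to −0.067 with the background removed. Of 135 member values under alternatives, 118 kept their direction and their side of the adjusted p limit, whatever the fold, and 10 changed sign. Among the 118 are values of ITGA3 and ITGA5 that lost the call at a fold above 2. They also include values of ITGA2, ITGAV and ILK that gained it. The cause of these changes was not tested. Over all genes DESeq2 called 3512 lower against 2307, and filtering at 10 counts or removing the background called 1177 and 1086 lower.

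Same-numbered libraries deviated together with correlations of 0.247, 0.0405 and 0.260, against −0.252 to 0.0310 for unlike numbers. Each library correlated best with its own number. The reported fit did not take the replicate numbers as pairs, and whether they mark a shared effect was not tested. With a replicate block 2 members were called higher, 0 lower and 6 passed the adjusted p alone, with 26 and 7 adhesion list genes called and 0 member transcripts. Over all genes the block called 1994 higher and 2321 lower.

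Low counts limit ITGB3 among the members, with 82 to 132 counts in the non-BCSC libraries, and the sparse subunits ITGA8, ITGA9 and ITGA11.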

Other observations

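Genes outside the naming rule, picked here after their values were seen, extended the description of the adhesion lists. The actin crosslinkers ACTN1, ACTN4 and FLNA had log2 fold changes of 1.03, 0.96 and 1.29 in BCSC over non-BCSC (adjusted p = 0.00703, 0.00614 and 0.0200, edgeR), and vinculin, VCL, had 0.53 (adjusted p = 0.0179). The thrombospondin receptor CD47, which associates with integrins at the membrane, had 0.74 (adjusted p = 0.00164), and the urokinase receptor PLAUR had 0.76 (adjusted p = 0.0497). RAB11A, a small GTPase of recycling endosomes that return integrins to the surface, fell by 0.64 on the log2 scale (adjusted p = 0.00819). The GTPases RHOA and RAC1, which act downstream of adhesion, had −0.05 and 0.17 and did not pass.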
